A study of Mus musculus with 22 samples.

Results

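Trisomic spermatocytes sorted before and up to the middle of pachytene were compared with the same cells of euploid males, over 8384 of the 15780 genes named on the array. The genes were those with a mean of at least 4 (log2 intensity) over the 6 arrays, of which 3 were trisomic and 3 euploid. The trisomic males were Ts43H, which are trisomic for the centromeric end of chromosome 17, and the euploid males were their siblings of genotype t121/D17. What t121/D17 denotes beyond a euploid sibling is not given in the labels. All animals were 2 months old, and the cells were taken from a suspension of seminiferous tubules by flow cytometry. The same genotypes were also measured in mid-late-pachytene spermatocytes, spermatids and liver, 22 arrays in all. The labels leave unstated if the 3 arrays per genotype stand for separate animals. The p-values therefore rest on a spread between arrays that may be technical, and it was pooled per gene over the groups of all 22 arrays.

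In pachytene of male meiosis the paired homologous chromosomes are joined by the synaptonemal complex and recombination is completed. Chromosomes that stay unpaired, the X and Y among them, are marked by DNA damage signalling proteins and become transcriptionally silent. An extra chromosome segment has no partner of its own and can remain unpaired. After the meiotic divisions, round spermatids build the acrosome, the enzyme-filled vesicle used at fertilization, and elongating spermatids pack their DNA with transition proteins and protamines.

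The sorted cells carried the RNA that defines early meiosis, together with RNA of spermatids. Sycp3, a component of the lateral element of the synaptonemal complex, had levels of 15.61, 15.83 and 15.74 on the euploid arrays and 15.87, 15.80 and 15.86 on the trisomic arrays. The 6 early prophase markers on the array had medians of 12.12, 12.59 and 11.75 (euploid) and 12.63, 12.32 and 12.46 (trisomic), against array means of 9.44 in euploid mid-late-pachytene spermatocytes and 8.49 in euploid spermatids. Prm1, protamine 1, lay between 15.77 and 16.08 on all 6 arrays, near the highest value of any probe set on them (16.7), where a difference may not show. Array medians of the 8 elongating spermatid markers averaged 14.34 (euploid) and 14.33 (trisomic). Euploid spermatids had 15.11 and the later euploid spermatocytes, mid-late-pachytene, 11.30. For the 8 round spermatid markers the averages were 10.73 (euploid) and 8.99 (trisomic). Euploid spermatids had 13.31 and the 2 arrays of later euploid spermatocytes 8.05 and 10.21 (mean 9.13). Both marker sets thus stood higher in these euploid cells than in the later spermatocytes. Hepatocyte and leukocyte markers had medians below 3 on every array, which is called the background range here. Of the 7 Sertoli cell markers on the array, 3 lay in that range on all 6 arrays, and Clu, which several cell types express, had 13.14, 13.69 and 13.22 (euploid) and 12.99, 13.01 and 13.39 (trisomic). Cldn11 and Wt1 of the same list had means of 6.78 ± 0.26 and 4.96 ± 0.22 (SD, n = 3) in euploid and 7.04 ± 0.39 and 4.43 ± 0.20 in trisomic cells. Single markers of other somatic cells were above the background range and had lower trisomic means, while most of the other members of their lists lay in it. Acta2 of peritubular cells had 7.85 ± 0.79 against 7.20 ± 0.61, and Dcn of stroma 4.49 ± 0.56 against 3.90 ± 1.26. Vwf of endothelium had 5.61 ± 0.61 against 4.68 ± 0.36, and Cyp17a1 of Leydig cells 5.08 ± 1.71 against 3.02 ± 0.56. None of these 6 passed (adjusted p from 0.0774 for Wt1 to 0.796 for Cldn11), and the part of such cells in the results was not tested. Of the 6 spermatogonial markers 2 were in the background range, while Stra8, which acts at meiotic entry, reached 9.46 on euploid array 1 and 8.95 on trisomic array 3 and lay between 7.79 and 8.73 on the others. Arrays of 1 genotype correlated with r from 0.975 to 0.991 across genes, and arrays of different genotypes with r from 0.952 to 0.982, where genes are not independent replicates.

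Trisomic cells differed from euploid cells in 867 genes (10.3% of the 8384 tested), of which 493 were higher (5.88%) and 374 lower (4.46%) by limma at a Benjamini-Hochberg adjusted p under 0.05. The calls use a spread per gene estimated over all 22 arrays. The genes that were lower changed more, with a median of -1.17 on the log2 scale (-4.31 to -0.43), and 228 of them changed by at least 2-fold. Higher genes had a median of 0.77 (0.41 to 2.17), and 87 of them changed by at least 2-fold. The 3 trisomic values all lay above or all below the 3 euploid values in 459 of the higher and 328 of the lower genes, and in 30.3% of all genes tested (20.8% above, 9.46% below). Over all tested genes the median change was 0.11. With the tested autosomal genes outside chromosome 17 set to a median change of 0, the calls became 275 higher and 485 lower. With each array centred on the median of all its autosomal genes outside chromosome 17 they became 837 higher and 342 lower, and with quantile normalization 470 and 471. The 867 genes kept the sign of their change in each of these.

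The median spread between arrays of a genotype was larger in these cells (residual SD 0.263, log2) than in liver, spermatids and mid-late-pachytene spermatocytes (0.229, 0.227 and 0.204). The root mean square of the residual SD did not keep this order, with 0.358 in these cells and 0.358, 0.335 and 0.404 in the others. When only the 6 arrays were fitted, limma called 0 genes higher and 4 lower, Lcn2, Sag, Slc35g3 and Lrrc72, all at an adjusted p of 0.0186. The genes other than Lcn2 and Lrrc72 were named after their values were seen. At an unadjusted p under 0.05 that fit had 1915 genes and the fit of 22 arrays 2159. Of the 97 called genes that are named below, 95 had adjusted p between 0.0882 and 0.242 on the 6 arrays alone. Leaving out 1 array gave between 120 (without trisomic 2) and 778 (without euploid 2) genes called higher, and 123 without trisomic 1, 177 without euploid 3 and 262 without euploid 1. For genes called lower the counts lay between 124 (without trisomic 1) and 512 (without trisomic 3), with 140 without trisomic 2 and 217 without euploid 3. The calls that held in each of these 6 fits were 81 higher and 97 lower. Trisomic array 3 lay nearest to the euploid arrays: it was the highest trisomic array in 290 of the 374 lower genes and the lowest in 315 of the 493 higher genes. Euploid array 3 was the lowest euploid array in 312 of the 493 higher genes, and with array 3 of both genotypes left out 293 genes were called higher and 381 lower.

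The largest decreases were concentrated in genes that euploid cells use after meiosis, in that 12 of the 14 largest had a mean at least 1 higher (log2) in euploid spermatids than in euploid mid-late-pachytene spermatocytes. Lrrc72, a leucine-rich repeat protein gene, had levels of 6.41, 6.95 and 6.43 on the euploid arrays and 3.68, 3.81 and 4.28 on the trisomic arrays. The genotypes stood more than 2 log2 units apart, and Lrrc72 fell by 2.68 (SE 0.30, adjusted p = 1.7e-04). Apobec4, a relative of the APOBEC cytidine deaminases, had 7.51, 8.57 and 8.09 in euploid and 4.50, 5.51 and 5.80 in trisomic cells, a fall of 2.79 (SE 0.41, adjusted p = 0.00102). Tmem249, a transmembrane protein gene, had 7.02, 7.93 and 7.81 against 4.27, 3.98 and 5.23. Tmem190, the gene of a sperm membrane protein, had 8.02, 8.97 and 8.86 against 4.76, 6.09 and 6.62. The choice required that no trisomic array reach a euploid one. Trisomic array 3 was the highest trisomic array in all 4. Plac8l1, Tex24 and Tmco5b fell by 2.46, 2.46 and 2.45. BC048562 fell by 2.71 and Fam135b by 2.45, but neither kept its call without trisomic 1 or trisomic 2 (adjusted p up to 0.0897 and 0.0625), and BC048562 also lost it without euploid 3. 4930451I11Rik, which changed by -2.99, kept its call only without trisomic 3 (adjusted p up to 0.177 in the other 5 fits).

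**Figure D1:**
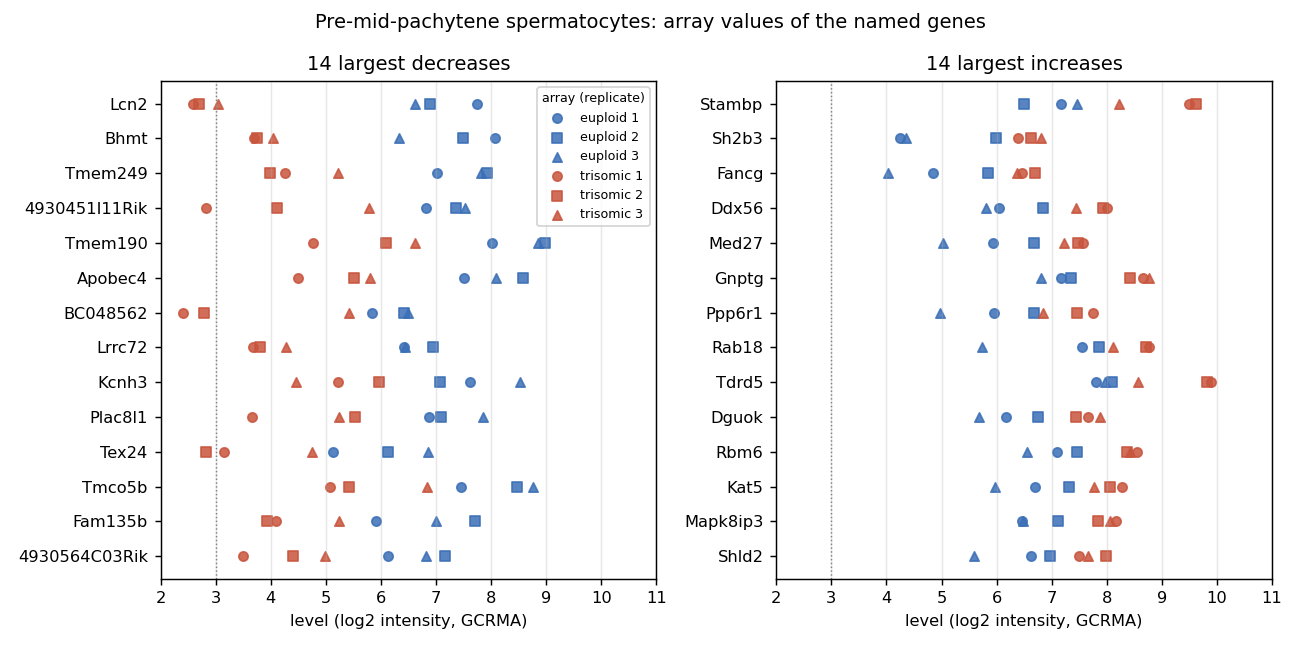
Level (log2 intensity, horizontal axis) of the 14 genes with the largest decreases (left) and the 14 with the largest increases (right) on each of the 3 euploid (blue) and 3 trisomic (red) arrays; each symbol is 1 array and the dotted line at 3 marks the background range. The choice of the genes required that the genotypes do not overlap and that the higher group has a mean of at least 6. Trisomic array 3 (red triangles) often lies nearest to the euploid arrays, as for Tmco5b.

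Lcn2, Bhmt and Kcnh3 were also among the 14, and the last 2 were not higher in spermatids by 1 or more. Lcn2, lipocalin 2, a secreted iron-siderophore carrier, had 7.75, 6.89 and 6.61 on the euploid arrays and 2.59, 2.69 and 3.04 on the trisomic arrays, which is the background range or its edge. Its change of -4.31 had an SE of 1.29 with the spread taken over all 22 arrays, and the call (adjusted p = 0.0419) was lost without any 1 of the 6 arrays (adjusted p up to 0.129). On the 6 arrays alone the SE was 0.31 and the gene was called at an adjusted p of 0.0186. Bhmt, betaine-homocysteine methyltransferase, an enzyme of methionine synthesis best known in liver, had 8.08, 7.50 and 6.32 in euploid and 3.69, 3.76 and 4.05 in trisomic cells. It fell by 3.46 (SE 0.61, adjusted p = 0.00317), and it also fell by 2.85 in spermatids (adjusted p = 0.0311) and by 4.24 in mid-late-pachytene spermatocytes (adjusted p = 0.00679), while its change in liver was -0.03 (adjusted p = 0.99). Kcnh3, a voltage-gated potassium channel gene, had 7.61, 7.07 and 8.52 in euploid and 5.22, 5.97 and 4.45 in trisomic cells and fell by 2.52 (SE 0.44, adjusted p = 0.0033). Its euploid means in mid-late-pachytene spermatocytes and spermatids were 3.3 and 3.1, so it was a gene of the earlier cells, and here trisomic array 3 was the lowest of the 6.

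The promoters of the genes that were lower differed in base composition from those of the other genes. RefSeq windows of the assembly GRCm38.p6, from 250 bases before the gene start to 50 after it, were found for 6954 of the 8384 genes by gene ID. The CpG ratio was taken from the first window of a gene, while the letters below were sought in all its windows. The ratio of observed to expected CpG had a median of 0.48 in the 302 genes called lower with a window, 0.80 in the 409 called higher and 0.80 in all. A ratio of at least 0.6 was found in 41.7%, 81.7% and 76.6% of them. The letters GTTGCCATG are a part of the X-box that RFX transcription factors bind and were searched on both strands. They were in 3.64% of the lower genes with a window (11 genes), in 0.49% of such higher genes and in 1.06% of all. The CRE letters TGACGTCA, the site of CREM and related factors, were in 1.66%, 6.36% and 4.10%, in the same order. The letters TATAAA were in 11.9%, 7.58% and 8.08%, and AACNGTC, the MYB core, in 11.6% (35 genes), 11% (45) and 9.45% (657). These are descriptions with no test, and a match is not a bound site.

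Apobec4 and 4930564C03Rik, both among the 14 decreases chosen above, held the X-box letters and are given as examples, not as a full list. Their 250 bases before the start, from RefSeq (GRCm38.p6), are shown with those letters in capitals, to show how close to the start they lie. The Apobec4 window is chr1:152750301-152750550 on the plus strand, and the 4930564C03Rik window is chr17:44880886-44881135 on the minus strand.
Apobec4: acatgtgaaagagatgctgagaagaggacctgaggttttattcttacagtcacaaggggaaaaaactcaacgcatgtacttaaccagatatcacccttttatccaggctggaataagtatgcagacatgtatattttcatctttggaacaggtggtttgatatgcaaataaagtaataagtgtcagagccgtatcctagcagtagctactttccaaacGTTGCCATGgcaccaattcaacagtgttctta
4930564C03Rik: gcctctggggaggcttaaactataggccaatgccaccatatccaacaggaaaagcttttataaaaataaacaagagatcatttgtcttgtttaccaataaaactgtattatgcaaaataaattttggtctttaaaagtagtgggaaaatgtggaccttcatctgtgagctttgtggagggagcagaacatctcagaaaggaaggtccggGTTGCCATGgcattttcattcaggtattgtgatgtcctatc
In Apobec4 the letters began 32 bases before the start and in 4930564C03Rik 41 bases before it. 4930564C03Rik had 6.12, 7.17 and 6.82 on the euploid arrays and 3.49, 4.40 and 4.98 on the trisomic arrays, a fall of 2.41 (SE 0.51, adjusted p = 0.00814), which lost its call without trisomic 1 (adjusted p = 0.0566). It lies on chromosome 17 beyond the trisomic segment.

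The change of a gene followed its place in the normal sequence of stages. Across the 8384 genes, the trisomic change in pre-mid-pachytene spermatocytes had a Pearson r of -0.41 and a Spearman rho of -0.34 with the difference of euploid spermatids minus euploid mid-late-pachytene spermatocytes, which come from other arrays. Over all tested genes 4.46% were lower and 5.88% higher. Genes that are at least 4 higher in spermatids (400 genes) had a median change of -0.43, with 55 lower (13.75%) and 1 higher (0.25%). Those 2 to 4 higher in spermatids (648 genes) had a median of -0.31, with 111 lower (17.1%) and 4 higher (0.62%). The 4837 genes within 1 of each other had a median of 0.13, with 150 lower (3.10%) and 343 higher (7.09%). The 1217 genes that are 1 to 2 higher in mid-late-pachytene spermatocytes had 0.22, with 10 lower (0.82%) and 92 higher (7.56%). Of the genes called lower, 54.8% were at least 1 higher in spermatids, against 4.67% of those called higher and 19.4% of all tested. Genes called lower had a median level of 3.0 in euploid liver, at the edge of the background range, and those called higher 8.57. For the genes at least 4 higher in spermatids, the median deviation from the mean of the 6 arrays was -0.02, 0.42 and 0.29 on the euploid arrays and -0.64, -0.22 and 0.21 on the trisomic arrays. Trisomic array 3 thus lay among the euploid arrays in this group. In bulk RNA, fewer cells of a type and less RNA per cell cannot be told apart. How much of the falls lay in spermatid RNA among the sorted cells was not tested.

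**Figure D2:**
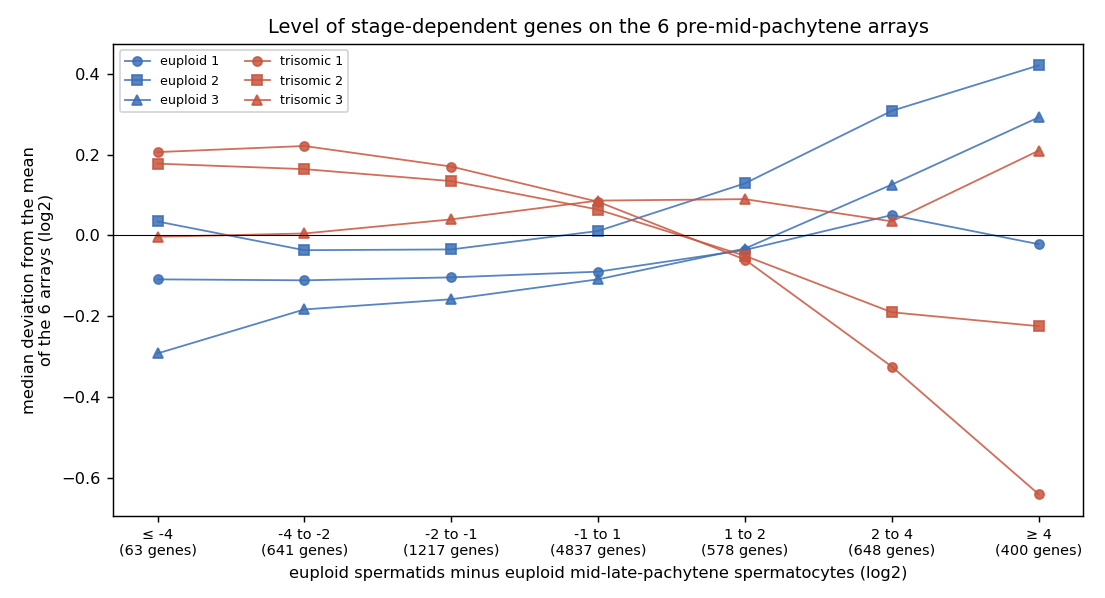
Median deviation of a group of genes from the mean of the 6 pre-mid-pachytene arrays (log2, vertical axis) for 7 groups of genes ordered by the difference of euploid spermatids minus euploid mid-late-pachytene spermatocytes (log2, horizontal axis, number of genes in parentheses); each line is 1 array, blue euploid and red trisomic. Trisomic arrays 1 and 2 reach -0.64 and -0.22 among the 400 genes highest in spermatids, while trisomic array 3 has 0.21, between the euploid values of -0.02 and 0.42.

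Round spermatid markers fell in part and elongating spermatid markers did not pass the test. Of the 8 round spermatid markers 4 fell (50%, against 4.46% of all genes) and 0 rose (against 5.88%). Their median change was -1.52, against 0.11 for all genes. Their median level was 10.35, 11.17 and 10.69 on the euploid arrays and 8.44, 9.02 and 9.51 on the trisomic arrays, without overlap. Spaca3, a lysozyme-like acrosomal protein gene, had 10.26, 11.11 and 10.79 (euploid) and 7.96, 8.89 and 9.21 (trisomic) and fell by 2.03 (SE 0.34, adjusted p = 0.00227). Acrv1, the gene of an acrosomal matrix protein, had 10.43, 11.40 and 11.01 against 8.92, 9.15 and 9.81 and fell by 1.65 (SE 0.31, adjusted p = 0.00398). Lyzl6 fell by 1.58 and Catsper3, a subunit of the sperm calcium channel, by 1.95, but without trisomic 1 neither passed (adjusted p up to 0.079 and 0.0976), nor Lyzl6 without trisomic 2 or Catsper3 without euploid 3. None of the 8 elongating spermatid markers passed in either direction. Their median change was 0.06, and their median level was 14.18, 14.54 and 14.30 (euploid) and 13.89, 14.36 and 14.74 (trisomic), with overlap. Tnp1, transition protein 1, which like Prm1 lay near the top of the range, had 15.24, 15.50 and 15.42 against 15.12, 15.33 and 15.52, and the 95% interval of its change was -1.13 to 0.9998. The 13 tested genes of spermatid chromatin, protamines included, had 0 calls and a median of -0.07.

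Acrosome genes were lower more often than the tested genes at large. Of 33 tested genes on this list 12 fell (36.4%, against 4.46% of all genes) and 1 rose, with a median change of -0.45. Of the 12, 3 (Acrv1, Spaca3 and Lyzl6) were already counted as round spermatid markers. The median level of the list was 9.001, 9.66 and 9.17 on the euploid and 8.14, 8.80 and 9.21 on the trisomic arrays, so trisomic array 3 lay within the euploid range. Eqtn, equatorin, a protein of the acrosomal membrane, had 7.10, 8.35 and 7.63 in euploid and 4.85, 5.46 and 5.74 in trisomic cells and fell by 2.34 (SE 0.40, adjusted p = 0.00272). Spam1, a sperm hyaluronidase, had 7.34, 8.30 and 7.79 against 4.70, 5.87 and 6.27 and fell by 2.20. Cd46, a complement regulator of the acrosomal membrane, fell by 2.21, Fam209 by 1.79 and Lyzl4 by 1.71. These last 3 lost their calls without trisomic 1 or 2 (adjusted p up to 0.0651, 0.109 and 0.13), and Fam209 and Lyzl4 also without euploid 2 or 3. Of the 12 that fell, 11 were at least 2 higher in euploid spermatids than in mid-late-pachytene spermatocytes, as were 7 of the 20 that did not pass. Without trisomic 1 the list had 4 genes called lower, and the median over the list lay between -0.62 and -0.26 when any 1 array was left out. The medians of the list in the other germ cells were -0.03 in spermatids and -0.04 in mid-late-pachytene spermatocytes.

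Among 47 tested genes of the flagellum 7 fell (14.9%, against 4.46% of all) and 2 rose (4.26%, against 5.88% of all), with a median of -0.0043. Catsper3, a round spermatid marker, is 1 of the 7. Tekt2, tektin 2, a filament protein of the axoneme, had 9.60, 10.59 and 10.46 on the euploid arrays and 8.87, 8.79 and 9.47 on the trisomic arrays and fell by 1.18 (SE 0.24, adjusted p = 0.00743). Catsper1, Odf3, Akap14 and Tekt5 fell by 1.23, 1.33, 1.62 and 1.09, and each lost its call without trisomic 1 and without euploid 3 (adjusted p up to 0.16, 0.191, 0.113 and 0.0855). The first 3 lost it without euploid 2 or trisomic 2 as well, and Catsper1 also without trisomic 3. Akap4 of the fibrous sheath, with a change of 0.04, and Odf1 of the outer dense fibres, with 0.21, did not pass. A list built around the testis-specific kinases also held other genes, such as Tsks, Tsacc, Stk33, Stk36 and Csnk2a2. Of its 10 tested genes 1 fell and 1 rose (10% each, against 4.46% and 5.88% of all). Tssk4 fell by 1.18 and Stk33 rose by 0.74. Both calls were lost without trisomic 1, trisomic 2 or euploid 3 (adjusted p up to 0.208 and 0.0897). Tssk4 also lost its call without euploid 2 and Stk33 without euploid 1.

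**Figure D3:**
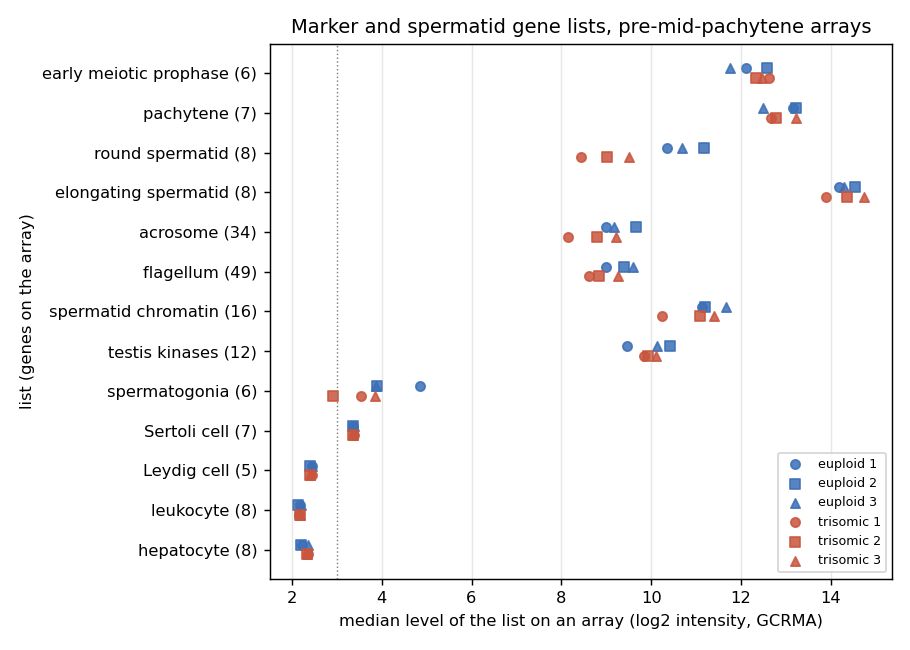
Median level (log2 intensity, horizontal axis) of each gene list on each of the 6 pre-mid-pachytene arrays, blue euploid and red trisomic, with the number of list genes on the array in parentheses; the dotted line at 3 marks the background range. Round spermatid markers lie at 10.35 to 11.17 on the euploid and 8.44 to 9.51 on the trisomic arrays, while the genotypes overlap for the elongating spermatid, early prophase and pachytene markers.

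Of 16 tested genes of the chromosome axis and of synapsis 1 fell and 1 rose (6.25% each, against 4.46% and 5.88% of all genes). Rec8, the meiotic kleisin of cohesin, had 8.18, 7.68 and 8.40 in euploid and 5.82, 5.64 and 6.44 in trisomic cells. The arrays lay more than 1 log2 unit apart, and Rec8 fell by 2.12 (SE 0.29, adjusted p = 8.5e-04), a call that held without any 1 array. The euploid mean of Rec8 was 11.3 in spermatids and 7.4 in mid-late-pachytene spermatocytes. Stag3, its meiotic cohesin partner, rose by 0.59 with overlapping arrays, and kept its call only without euploid 2 (adjusted p up to 0.16). Sycp1, the transverse filament protein, had 13.68, 14.14 and 13.13 against 14.21, 14.18 and 14.01 and did not pass (0.49, adjusted p = 0.161).

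Of 21 recombination genes 2 rose (9.52%) and 1 fell (4.76%), also near the shares over all genes. Cntd1, a cyclin-related factor of crossover maturation, had 10.46, 10.71 and 10.01 on the euploid arrays and 11.89, 11.70 and 11.003 on the trisomic arrays and rose by 1.14 (SE 0.20, adjusted p = 0.00351), also without any 1 array. Msh4, a MutS homologue that stabilizes crossover intermediates, had 10.31, 10.86 and 10.25 against 11.26, 11.27 and 11.03 and rose by 0.72, lost without euploid 1 or 3 or trisomic 1 or 2 (adjusted p up to 0.106). Mei4, needed for the programmed DNA breaks, had 8.48, 7.84 and 6.87 against 6.01, 5.54 and 7.62. Its fall of 1.34 rested on trisomic 1 and 2, since trisomic 3 lay within the euploid range, and the call was lost without either of them, or without euploid 1 or 2 (adjusted p up to 0.19). Stra8 ran in parallel, with 9.46, 8.73 and 8.20 against 7.79, 7.81 and 8.95 (adjusted p = 0.166). Of 32 genes of DNA damage signalling at unsynapsed chromatin 1 rose (3.1%, against 5.88% of all) and 0 fell. It was Rad9b of the 9-1-1 clamp, which rose by 0.56, and its call was lost without any 1 array (adjusted p up to 0.139). The median over that list was 0.17.

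Among 17 tested p53 and apoptosis genes only Pmaip1 passed (5.88% of them, against 5.88% higher over all genes). Pmaip1, the BH3 protein Noxa, had 8.71, 9.15 and 8.82 against 9.80, 10.24 and 9.15 and rose by 0.84, lost without euploid 1 or 3 or trisomic 1 or 2 (adjusted p up to 0.229). In the piRNA pathway, which silences transposons in germ cells, 20 of 22 tested genes had a change above 0, as had 5174 of all 8384, and 3 rose (13.6%, against 5.88% of all), with a median of 0.28. Tdrd5, a Tudor protein of germ cell granules, had 7.81, 8.10 and 7.98 in euploid and 9.89, 9.82 and 8.57 in trisomic cells and rose by 1.46 (SE 0.33, adjusted p = 0.0121), lost without trisomic 1 or 2 (adjusted p up to 0.075). Stk31 rose by 0.60 and Tdrd3 by 0.48, and Gtsf1l fell by 1.59. All 3 lost their calls without trisomic 1 or 2 or euploid 3 (adjusted p up to 0.155, 0.108 and 0.105), Stk31 and Tdrd3 also without euploid 1 and Gtsf1l without euploid 2.

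Of 26 tested transcription factors of the meiotic and haploid programmes 2 fell (7.69%, against 4.46% of all genes) and 0 rose (against 5.88%). Hsfy2, a heat shock factor relative of germ cells, had 9.09, 10.10 and 9.48 on the euploid arrays and 7.15, 7.54 and 8.09 on the trisomic arrays and fell by 1.96 (SE 0.38, adjusted p = 0.00511). Sox5 had 6.92, 8.26 and 7.73 against 5.72, 6.29 and 6.79 and fell by 1.37, lost without trisomic 1 or 2 or euploid 2 or 3 (adjusted p up to 0.192). Both are highest in euploid spermatids, at 12.9 and 13.3. Without trisomic 3, 6 of the 26 were called lower and 2 higher. Among 43 genes of the cell cycle 1 rose (2.33%, against 5.88% of all) and 3 fell (6.98%, against 4.46% of all). Mcm7, a subunit of the replicative helicase, rose by 1.30. Ccnd1, cyclin D1, fell by 1.19, as did the phosphatases Cdc25a, by 0.86, and Cdc25c, by 0.71. Each of these 4 lost its call without trisomic 1 or 2 (adjusted p up to 0.0872, 0.0625, 0.105 and 0.0767). The loss also followed without euploid 1 for Mcm7, Ccnd1 and Cdc25c, without euploid 3 for Mcm7 and Cdc25a, and without euploid 2 or trisomic 3 for Cdc25c. The fall of Ccnd1 was 0.75 without euploid 1, whose value of 6.09 stood above 4.69 and 4.90 on the other euploid arrays.

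The 14 largest increases, chosen by the same rule as the decreases, ran from 1.32 to 2.06. Crmp1 (2.17), Auh (2.00), Ccdc130 (1.95) and Gstm6 (1.91) lay outside this choice. Of the 14, 10 were called without any 1 of the 6 arrays, and 1 was at least 1 higher in spermatids than in mid-late-pachytene spermatocytes. Stambp, a deubiquitinase of endosomal sorting, had levels of 7.18, 6.49 and 7.46 on the euploid arrays and 9.49, 9.61 and 8.22 on the trisomic arrays. It rose by 2.06 (SE 0.37, adjusted p = 0.00381), a fold of 4.17. Dguok, deoxyguanosine kinase of mitochondrial nucleotide salvage, had 6.17, 6.75 and 5.67 against 7.65, 7.44 and 7.88 and rose by 1.46 (SE 0.27, adjusted p = 0.004). Dguok lay in the background range in later euploid germ cells, at 2.0 in spermatids and 2.7 in mid-late-pachytene spermatocytes.

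Ddx56, an RNA helicase of ribosome assembly, had 6.05, 6.84 and 5.80 in euploid and 8.0003, 7.93 and 7.44 in trisomic cells and rose by 1.56. Rbm6, an RNA-binding protein, had 7.11, 7.45 and 6.55 against 8.55, 8.37 and 8.41 and rose by 1.41. Kat5, the acetyltransferase Tip60 of DNA damage signalling, had 6.70, 7.32 and 5.96 against 8.27, 8.05 and 7.77 and rose by 1.37. In each of these genes euploid array 3 was the lowest of the 6 and euploid array 2 the highest euploid array. Sh2b3, an adaptor of cytokine signalling, rose by 1.74, Fancg, a subunit of the Fanconi anaemia core complex, by 1.60, Med27 of the Mediator complex by 1.54 and Ppp6r1, a subunit of protein phosphatase 6, by 1.49. Shld2, of the shieldin complex that protects broken DNA ends, rose by 1.32 and lost its call without trisomic 2 (adjusted p = 0.058). Rab18, a small GTPase, rose by 1.48, but its value was 0.82 without euploid 3, which had 5.73 against 7.55 and 7.86, and its call was lost without euploid 3, trisomic 1 or trisomic 2 (adjusted p up to 0.0939).

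Few genes of protein quality control passed, and those that did rose. Of 40 tested heat shock and unfolded protein response genes 3 rose and 0 fell (7.50%, against 5.88% of all genes rising). Of the 40, 34 had a change above 0, as had 5174 of all 8384, with a median of 0.15 against 0.11 for all genes. Pdia4 and Pdia6, protein disulfide isomerases of the endoplasmic reticulum, rose by 1.04 and 0.76, and Cct5, a chaperonin subunit, by 0.44. Of 31 proteasome genes 4 rose (12.9%) and 0 fell, with a median of 0.24. The 4 were Psmd8 (0.85), Psmb7 (0.78), Psmd7 (0.66) and Psmb4 (0.41). All 7 lost their calls without euploid 1 or 3 or trisomic 1 or 2, with adjusted p up to 0.223 for Pdia4, 0.15 for Pdia6, 0.119 for Cct5, 0.167 for Psmd8, 0.134 for Psmb7, 0.141 for Psmd7 and 0.0992 for Psmb4. Pdia4 and Psmd8 lost them without trisomic 3 as well, and the value of Pdia4 was 0.65 without euploid 3. With array 3 of both genotypes left out, 0 heat shock genes and 1 proteasome gene were called. None of the 5 tested interferon genes passed, and 17 of the 26 on the array lay in the background range.

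Sperm metabolism genes changed in both directions, with 3 of 21 higher and 3 lower (14.3% each, against 5.88% and 4.46% of all genes). Pdha2, the germ cell form of a pyruvate dehydrogenase subunit whose somatic gene is on the X chromosome, had 12.45, 13.24 and 12.10 against 13.72, 13.73 and 13.30 and rose by 0.99. Cox8c and Cox7b2, germ cell forms of cytochrome c oxidase subunits, rose by 0.88 and 0.50. Slc16a7, a monocarboxylate transporter, had 12.82, 13.67 and 13.14 against 11.58, 11.90 and 12.60 and fell by 1.18. Eno4, a sperm enolase, fell by 0.84 and Gk2, a testis glycerol kinase, by 0.58. Tktl2, an autosomal relative of an X-linked transketolase gene, rose by 0.65. Cox8c lost its call without trisomic 2 (adjusted p = 0.0549). The other 6 lost theirs without trisomic 1 (Pdha2, Cox7b2, Slc16a7, Gk2 and Tktl2 also without trisomic 2, Pdha2, Eno4 and Tktl2 without euploid 3 and Cox7b2 without euploid 1), with adjusted p up to 0.162. Ybx2, a germ cell RNA-binding protein and the only one of 7 pachytene markers that passed, rose by 0.49, a call kept only without euploid 2 (adjusted p up to 0.098).

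Genes of the trisomic segment, set to the first 30 Mb of chromosome 17 because the labels give no breakpoint, were higher by a median of 0.24, against 0.12 on the autosomes except 16 and 17. Those also tested elsewhere had medians of 0.30 in mid-late-pachytene spermatocytes (137 genes), 0.36 in spermatids (139) and 0.67 in liver (128). On the autosomes except 16 and 17 these medians were 0.01, 0.02 and -0.03. Of 154 segment genes tested here 16 rose (10.4%, against 5.88% of all) and 2 fell (1.30%, against 4.46% of all). Of the 154, 112 had a change above 0, as had 5174 of all 8384. The median deviation of the segment genes was -0.17, -0.06 and -0.13 on the euploid arrays and 0.10, 0.06 and 0.21 on the trisomic arrays, so the genotypes did not overlap. Over all genes the same values were -0.08, 0.03 and -0.09 and 0.07, 0.05 and 0.07, which did not overlap either. With the tested autosomal genes set to a median of 0, the segment's median was 0.13 and 10 genes rose. The segment genes called higher numbered 5 without trisomic 2, 7 without euploid 1 and 10 without trisomic 1. Among segment genes within 1 log2 unit between euploid spermatids and mid-late-pachytene spermatocytes 12 of 97 rose (12.4%, against 7.29% of such genes on the autosomes except 16 and 17).

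Mapk8ip3, a scaffold of kinesin transport, had 6.47, 7.12 and 6.47 in euploid and 8.17, 7.83 and 8.06 in trisomic cells and rose by 1.34 (SE 0.23, adjusted p = 0.00308), a fold of 2.52. Mtch1, a mitochondrial outer membrane protein, had 6.60, 6.63 and 6.46 against 7.89, 7.50 and 7.83 and rose by 1.17 (SE 0.20, adjusted p = 0.00304), a fold of 2.26. Both genes were chosen for arrays without overlap of the genotypes, and both folds were above the ratio of 3 copies to 2. Gnptg, a subunit of the enzyme that tags lysosomal proteins, had 7.17, 7.35 and 6.80 against 8.66, 8.42 and 8.77 and rose by 1.51, lost without euploid 3 or trisomic 1 (adjusted p up to 0.0709). It rose in liver as well, by 1.30 (adjusted p = 0.0337). Tbl3, a ribosome assembly factor, rose by 0.84 and Fam234a by 0.77. Rhot2, a mitochondrial transport GTPase, rose by 0.89 and kept its call only without trisomic 3 (adjusted p up to 0.177). Tsr3 and Taf11 rose by 0.75 and 0.74 and lost their calls without trisomic 1 or 2 or euploid 1, and Taf11 without euploid 3 (adjusted p up to 0.0973 and 0.129).

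Of 9 tested t complex genes 3 rose and 0 fell (33.3%, against 10.4% of the segment's genes and 5.88% of all), all 3 of them segment genes. Mas1, an angiotensin-related receptor gene, had 3.71, 3.93 and 4.25 against 4.39, 5.73 and 5.48 and rose by 1.24, lost without trisomic 2 (adjusted p = 0.0721). Tcp11, a sperm protein gene, had 12.77, 13.04 and 12.60 against 13.05, 13.52 and 14.003 and rose by 0.72, or 0.48 without trisomic 3. Tcte2 rose by 0.73 with overlapping arrays. Tcp11 and Tcte2 lost their calls without euploid 1 or 3 or trisomic 2 or 3 (adjusted p up to 0.093 and 0.166).

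Chromosome 16 stood out from the other autosomes in the share of genes that were lower. Of its 277 tested genes 29 fell (10.5%) and 6 rose (2.17%), while on the 17 autosomes other than 16 and 17 the share that fell ran from 2.47% to 6.25% and the share that rose from 5.10% to 8.13%. The fall was not limited to genes of late stages. Among genes within 1 log2 unit between euploid spermatids and mid-late-pachytene spermatocytes, 17 of 146 on chromosome 16 fell (11.6%), against 2.55% of such genes on the autosomes except 16 and 17. Among genes higher in spermatids by at least 1 the shares were 9.23% and 13.97%. These shares were not tested against each other. The genes of chromosome 16 that fell numbered 15 without trisomic 2, 16 without trisomic 1, 19 without euploid 3 and 38 without trisomic 3. Those that rose numbered 2 without euploid 1, 3 without trisomic 1 or trisomic 2 and 13 without euploid 2. The genes were also divided into 4 groups by distance from the centromere, a division made after values were seen. Among the 70 tested genes nearest the centromere 18 fell, and the median change was -0.41. In the next groups 4 of 69, 6 of 69 and 1 of 69 fell, with medians of -0.19, 0.03 and 0.13. Of the 18 that fell nearest the centromere, 15 were not spermatid-high in this sense, where 20 of the 70 tested were spermatid-high.

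Crebbp, the histone acetyltransferase CBP, had levels of 9.996, 9.69 and 10.30 on the euploid arrays and 8.59, 8.48 and 8.85 on the trisomic arrays and fell by 1.36 (SE 0.30, adjusted p = 0.00966). 4930562C15Rik, a gene high in spermatids, had 5.77, 6.75 and 6.27 against 3.93, 3.85 and 5.10 and fell by 1.97. Rimbp3, a manchette protein of spermatids, had 11.45, 11.74 and 11.86 against 10.10, 10.45 and 11.19 and fell by 1.11, and Muc4, a membrane mucin, fell by 1.28. These 4 kept their calls without any 1 array. Zdhhc19, a palmitoyltransferase, fell by 1.29 and lost its call without euploid 2 or 3 or trisomic 1 or 2 (adjusted p up to 0.114), and Zc3h7a, a zinc finger protein, fell by 1.11 and lost it without any 1 array (adjusted p up to 0.101). In the other direction Psmg1, a proteasome assembly chaperone, had 11.30, 11.51 and 11.40 against 12.18, 12.08 and 11.94 and rose by 0.66 (SE 0.12, adjusted p = 0.00398). Pdxdc1 rose by 0.63 and lost its call without euploid 1 or 3 or trisomic 2 or 3 (adjusted p up to 0.11). Usp25, a deubiquitinase, rose by 1.18 and kept its call only without euploid 2 (adjusted p up to 0.168).

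**Figure D4:**
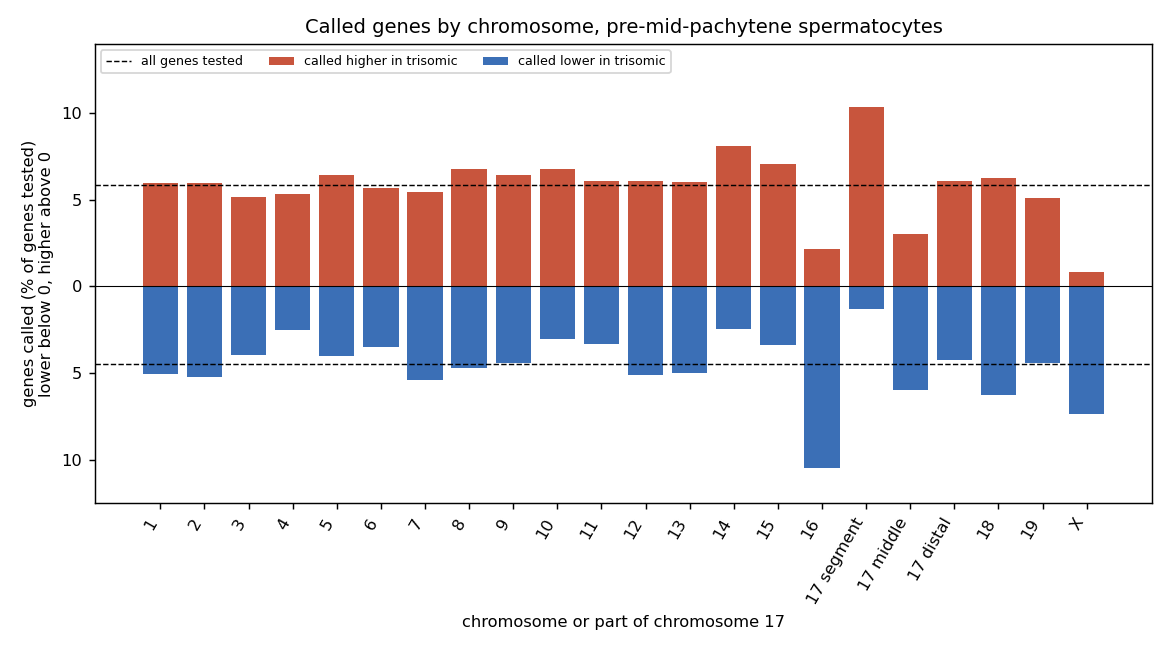
Share of tested genes called higher (red, above 0) and lower (blue, below 0) in trisomic cells for each chromosome (percent, vertical axis), with chromosome 17 divided into the segment, the genes between and the distal part; dashed lines give 5.88% and 4.46%, the shares over all genes tested. Chromosome 16 has 10.5% lower and 2.17% higher, the segment 10.4% higher and the X chromosome 7.38% lower and 0.82% higher.

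On the X chromosome 18 of 244 tested genes fell (7.38%, against 4.46% of all) and 2 rose (0.82%, against 5.88% of all). Fewer fell without trisomic 2 (6 genes) or trisomic 1 (11 genes) and more without trisomic 3 (30 genes). The median deviation of the X genes was 0.08, 0.25 and 0.00 on the euploid arrays and -0.08, -0.38 and 0.26 on the trisomic arrays, so trisomic arrays 2 and 3 stood apart and the genotypes overlapped. Among genes within 1 log2 unit between spermatids and mid-late-pachytene spermatocytes 12 of 118 X genes fell (10.2%, against 2.55% of such genes on the autosomes except 16 and 17). Among genes at least 1 higher in spermatids 6 of 125 fell (4.80%, against 13.97%). Ct55, whose euploid means in mid-late-pachytene spermatocytes and spermatids were 3.6 and 3.5, had 5.98, 6.14 and 6.06 in euploid and 4.52, 4.51 and 5.42 in trisomic cells and fell by 1.24 (SE 0.25, adjusted p = 0.00578). 4933401B06Rik had 5.51, 6.55 and 6.59 against 3.36, 4.25 and 4.66 and fell by 2.13, also without any 1 array. Cylc1, cylicin of the sperm head, fell by 1.53 and lost its call without euploid 3 or trisomic 1 or 2 (adjusted p up to 0.0808). Akap14, counted above with the flagellum, fell by 1.62. Nbdy, a regulator of mRNA decapping bodies, rose by 0.71, lost without euploid 2 or trisomic 1 or 2 (adjusted p up to 0.0662).

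Few of the called genes were also called in the other cell types of the same genotypes, which were measured on other arrays. The shares of tested genes called higher and lower were 5.77% and 3.78% in liver, 0.29% and 0.531% in spermatids and 0.569% and 0.396% in mid-late-pachytene spermatocytes. Of the 493 genes called higher, 462 were tested in mid-late-pachytene spermatocytes, where 3 were called higher (0.65% of those tested and 6.52% of the genes called higher there). In spermatids 2 of 457 were called higher (0.44% and 8.33%) and in liver 15 of 388 (3.87% and 3.18%), where 8 others were called lower. Of the 374 called lower, 2 of 305 tested in mid-late-pachytene spermatocytes were called lower (0.66% and 6.25%) and 1 of 316 in spermatids (0.32% and 2.27%), with 1 called higher in the former and 0 in the latter. In liver, where only 141 of the 374 were tested, 3 were called lower (2.13% and 0.97%) and 9 higher. Among all genes tested in both cell types, 24 of 7434 were called higher and 10 lower in mid-late-pachytene spermatocytes. The counts were 16 and 14 of 7401 in spermatids and 269 and 169 of 6510 in liver. Few members were called in the germ cells, so their shares there are imprecise. A gene called here and not there is not shown to differ, and the difference itself was tested as an interaction. It passed for 8 of 7434 genes (0.108%) against mid-late-pachytene spermatocytes, 18 of 7401 (0.243%) against spermatids and 339 of 6510 (5.21%) against liver. These counts moved with single arrays, with 2, 0 and 132 without trisomic 1, 4, 2 and 147 without trisomic 2, 64, 130 and 365 without trisomic 3 and 72, 114 and 562 without euploid 2. Without euploid 1 the count against spermatids was 49, and without euploid 3 that against liver was 199. Lrrc72 differed from both later germ cell types, where its changes were -0.05 and -0.14 (adjusted p of the difference 0.0373 and 0.0238). Stambp and Tdrd5 differed from spermatids, where they had -0.58 and -1.30 (adjusted p of the difference 0.0422 and 0.0238). None of these differences to spermatids passed without trisomic 1. For Rec8 the difference to spermatids, where its change was -0.14, had an adjusted p of 0.0556 and did not pass.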

How the data were processed

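RNA of 22 samples was labelled in 2 cycles from 20 to 30 ng of total RNA and measured on 22 Affymetrix arrays, per the labels' protocols. The authors deposited log2 intensities, 1 per probe set, made with GCRMA, per the submitters' processing notes, which corrects background by GC content and normalizes across arrays, so small global shifts between groups cannot be read. Its version and the arrays normalized together are not given in the sources used here. Of 16539 probe sets 15780 carried 1 gene symbol and 759 none, which were left out; 15752 matched a gene table of GRCm38.p6, used for chromosome and gene order. Values over the 6 arrays ran from 0.95 to 16.7, and array medians from 4.52 to 4.69. The number of arrays limits the precision.

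Group means (8) of all 22 arrays were fitted with limma 3.58.1 in R 4.3.3 (statmod 1.5.0, python 3.11.15), with two-sided tests and Benjamini-Hochberg adjustment at 0.05 over the genes whose mean reached 4. The code was tested on simulated data. Replicate numbers did not pair the samples.

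The text names, among called genes without overlap of the genotypes and averaging 6 or more in the higher group, the 14 largest changes each way, up to 8 increases and 4 decreases of the segment (no decrease qualified), 3 increases and 6 decreases on chromosome 16 and 4 each way on the X. From each list up to 6 called members, or the 2 highest where none was called, were eligible, not all of which are printed. Regions and the 29 gene lists (12 of markers, 17 of pathways) were chosen with earlier results of these data known, and 8 list entries with wrong or X-linked matches were removed. They were described by counts and medians with no test. Alternatives were the 6 arrays alone, a replicate block, trend and robust spread, quantile normalization, centring, filters, array weights, segment ends of 25 and 35 Mb and leaving out each array. Centring on tested genes, leaving out array 3 of both genotypes, and a lower-group mean of at least 3 were added after seeing the data.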

Additional observations from a re-analysis of the deposited data

Results flagged for a closer look

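The interaction test of limma, adjusted over all genes tested in both cell types, found the trisomic change of these named genes to differ from that in another cell type. The values are the change in pre-mid-pachytene spermatocytes minus that in the other cell type (log2). The euploid and trisomic arrays did not overlap here for any of them except Sycp3 and Alas2. The choice of the largest changes required this.

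For Lrrc72 the difference was -2.63 to mid-late-pachytene spermatocytes and -2.54 to spermatids. Stambp differed by 2.64 and Tdrd5 by 2.76 from spermatids, and Stambp by 2.17 from liver. The difference to liver was above 0 for Ddx56 (2.04), Ppp6r1 (1.96), Rab18 (2.18), Dguok (1.50) and Shld2 (1.55), whose changes in liver lay between -0.69 and -0.04 and did not pass there. It was also above 0 for Psmg1 (0.62), Tdrd3 (0.86), Cct5 (0.71), Psmb7 (1.03) and Psmd7 (1.03), with liver changes of 0.04, -0.37, -0.27, -0.25 and -0.37 that did not pass. For Pdia4 (2.02) and Pdia6 (1.46) the liver changes were -0.98 (adjusted p = 0.0573) and -0.70 (adjusted p = 0.0417), so the liver gave a large share of the difference. The difference was below 0 for Bhmt (-3.43) and Muc4 (-1.27), with liver changes of -0.03 and -0.01. It was also below 0 for Kcnh3 (-3.03), Sox5 (-2.14) and Slc16a7 (-1.55), whose liver changes of 0.52, 0.77 and 0.37 were above 0 and did not pass. Ccnd1 (-2.83) rose in liver by 1.65 (adjusted p = 0.0011), more than it fell here. Sycp3 (1.14) and Alas2 (1.56) fell in liver by 1.03 and 1.54 (adjusted p = 1.3e-04 and 0.00214), while their changes here were 0.11 (adjusted p = 0.689) and 0.03 (adjusted p = 0.971).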

How the results depend on the processing

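The called genes kept their sign in every alternative that tested them, which was 867 genes except with a minimum mean of 6 (696) and a lower-group mean of at least 3 (864). On the 6 arrays alone 0 genes were called higher and 4 lower, and 0 in either direction in the segment, on chromosome 16 and on the X. Array weights gave 1051 higher and 685 lower, 5 lower in the segment, 15 higher and 53 lower on chromosome 16, and 1 higher and 49 lower on the X. Autosomal median centring gave 837 higher, 27 higher in the segment (median 0.32) and 11 on chromosome 16 (median -0.0090). Tested autosomal genes centred on 0 gave 275 higher, 10 in the segment (median 0.13), 2 on chromosome 16 (median -0.21) and 1 on the X. Leaving out array 3 of both genotypes gave 293, 10, a chromosome 16 median of -0.18, and 1 higher on the X. Quantile normalization gave 1 lower in the segment and 45 lower on chromosome 16. With no filter the segment had 0 lower and a median of 0.0503, chromosome 16 a median of 0.0028 and the X 1 higher. A minimum mean of 6 gave 1 lower in the segment and 1 higher and 8 lower on the X. A segment end at 25 Mb left 6 higher and one at 35 Mb 4 lower.

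Differences between cell types (8, 18 and 339 genes) became 3 for mid-late-pachytene spermatocytes with a trend and robust spread, 16 and 50 (spermatids) with quantile normalization, 32 (spermatids) and 744 (liver) with autosomal median centring, and 2, 3 and 130 on the arrays of both cell types only. With each array left out in turn, genes called higher ranged from 120 to 778 and lower from 124 to 512. The segment had 5 to 18 higher and 0 to 3 lower, chromosome 16 2 to 13 and 15 to 38, the X 0 to 5 and 6 to 30. The differences between cell types ranged from 2 to 72, 0 to 130 and 132 to 562, and the stage correlation from -0.46 to -0.32. The causes were not tested.

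With a replicate block 461 genes were called higher and 361 lower, 1 higher on the X, and the differences numbered 1 and 0 in the germ cells. Replicate numbers did not pair the samples (deviations of equal numbers correlated at 0.19, -0.13 and 0.01). Probe sets on their own were not run, since no gene had more than 1. Of 1880 values of named genes under alternatives 407 were no longer past the threshold and 0 turned sign.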

Other observations

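Neighbours in the gene order of GRCm38.p6 that were called in the same direction were counted after values were seen, with no test, and most called genes had none. Of the 491 placed genes called higher, 16.5% had a neighbouring tested gene that was also called higher, against 11.4% of all 8374 placed genes. Of the 374 called lower, 11.5% had a neighbour called lower, against 8.71% of all. Stambp and Dguok, with changes of 2.06 and 1.46, lie on chromosome 6 with 1 tested gene between them. The hyaluronidase genes Spam1, Hyal5 and Hyal6, also on chromosome 6, changed by -2.20, -1.63 and -0.89. Crebbp on chromosome 16 lies beside Trap1 and Srl, which changed by -0.50 and -2.12. Gnptg and Tsr3 in the trisomic segment changed by 1.51 and 0.75 with no tested gene between them.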
